A study of Caenorhabditis elegans with 6 samples.

Results

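The RNA of worms fed a mixture of OP50 and LL12007 was compared with that of worms fed a mixture of OP50 and LL100933, gene by gene. The comparison rests on 4 of the 6 libraries of the series, chosen by diet: 2 of OP50 + LL12007 and 2 of OP50 + LL100933. The 2 libraries of *E. coli* OP50 alone, the usual laboratory food, were kept as a point of orientation. Worms of all groups were wild-type Bristol N2 hermaphrodites of *Caenorhabditis elegans*, 3 days old at the start, which were fed for 5 days. About 200 whole worms were taken per group. Every diet contained OP50, and the *Lactococcus lactis* subsp. *lactis* strains made up an equal part of the mixture. LL12007 produces the antibacterial peptide nisin and LL100933 does not. The labels give the number of LL100933 as 100923, and the name in the text is that of the paper.

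Food bacteria reach a worm as prey and as a source of lipids, amino acids and cofactors, and its intestine both digests them and carries most of its defence and detoxification enzymes. The worm's skin is its epidermis, which lies beneath the cuticle and secretes the cuticle's collagens and an apical matrix of proteins with zona pellucida and lipocalin domains. Much of this matrix is made in waves tied to the larval molts. The worm cannot take branched-chain fatty acids from OP50 in useful amounts and makes them from leucine, through a pair of elongases. In fasting, it turns to lipases, carnitine transfer of fatty acids and the glyoxylate cycle.

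Total counts were 15953213 and 14929196 in the OP50 + LL12007 libraries, 19763455 and 15748820 in those of OP50 + LL100933, and 21691687 and 17280251 in those of OP50. Counts were normalized to a common library size, and the values below are such normalized counts. Of 46904 genes, 14528 passed edgeR's filter on low counts in the 4 *Lactococcus* libraries. Replicates were further apart than counting alone would place them: the chi-square per degree of freedom was 5.07 between the OP50 + LL12007 libraries, 20.5 between those of OP50 + LL100933 and 44.8 between those of OP50. Replicate 1 of OP50 + LL100933 stood apart in ribosomal RNA, with 0.919% of its counts against 0.0841% to 0.174% in the other 5 libraries. No source says that the libraries came from separate cultures, so p-values reflect how far these particular libraries vary, in part or wholly for technical reasons. In whole-worm RNA, fewer cells of a type and less RNA per cell cannot be told apart. An exact two-sided permutation test of 2 against 2 cannot go below 0.333 for a single gene, so calls rest on the model fitted across genes. Counting across near-identical copies and overlapping genes is not described in the sources used here. Values of collagens, major sperm proteins, actins and other families of close copies are uncertain for that reason.

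Between the strains, 234 genes rose and 171 fell with OP50 + LL12007 relative to OP50 + LL100933. These are 1.61% and 1.18% of the genes tested, by edgeR's quasi-likelihood test on the 4 libraries at a Benjamini-Hochberg adjusted p under 0.05. At an unadjusted p under 0.05 there were 2396 genes (16.5%). The median log2 fold change of all tested genes was -0.01. A change of at least 2-fold was seen for 53 of the higher and 60 of the lower genes. The libraries of the diets did not overlap for any called gene, a pattern that 22.8% of all tested genes showed in the higher and 23.8% in the lower direction. When the 2 OP50 libraries entered the same edgeR fit and shared its estimate of spread, 0 genes passed in either direction, with 1530 (10.3%) at an unadjusted p under 0.05 and a lowest adjusted p of 0.0767. The choice of the 4-library fit was made with both counts known. DESeq2 called 265 higher (1.82%) and 221 lower (1.52%) genes in the 4 libraries, and 77 higher (0.517%) and 65 lower (0.436%) in all 6, each of which was also called by edgeR in the 4. Leaving out replicate 2 of OP50 + LL12007 lowered edgeR's calls to 104 higher and 120 lower genes. Without replicate 1 of OP50 + LL100933 they were 593 and 486, without its replicate 2 they were 1396 and 1444, and without replicate 1 of OP50 + LL12007 they were 228 and 178. In all 4 of these fits, 88 higher and 64 lower genes were called.

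**Figure D1:**
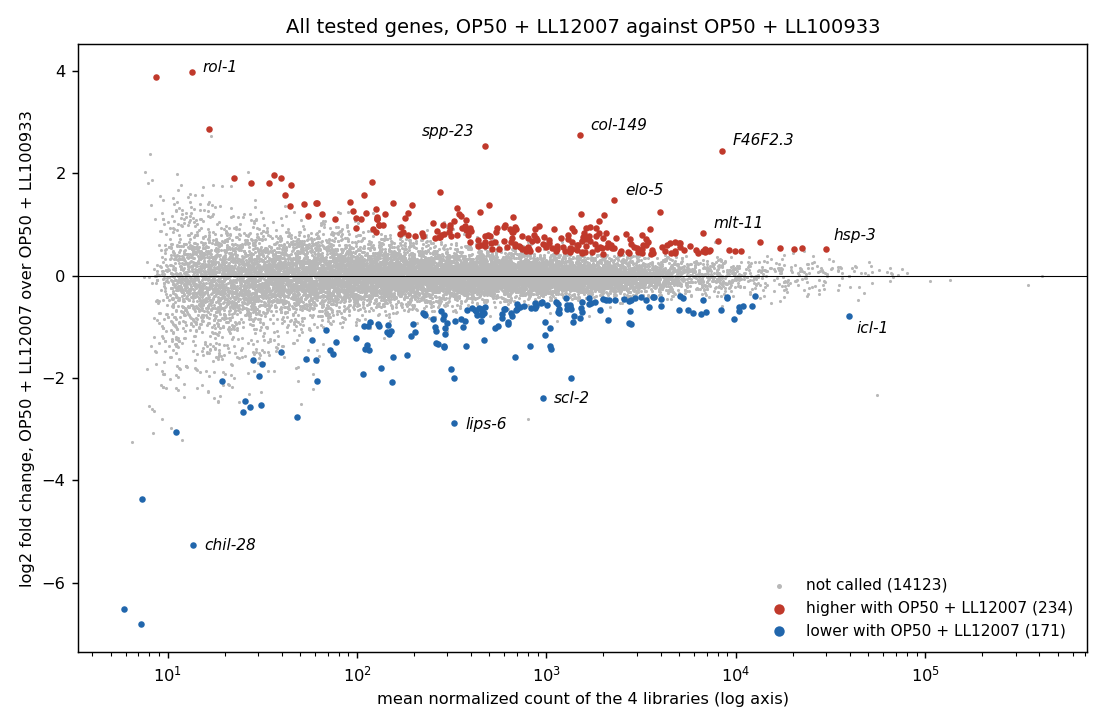
Each point is 1 of 14528 tested genes, with its mean normalized count in the 4 *Lactococcus* libraries on a log axis and its log2 fold change, OP50 + LL12007 over OP50 + LL100933. Red points are the 234 genes called higher with OP50 + LL12007 and blue points the 171 called lower (edgeR, adjusted p under 0.05), and the genes with many counts were called at smaller fold changes.

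**Figure D2:**
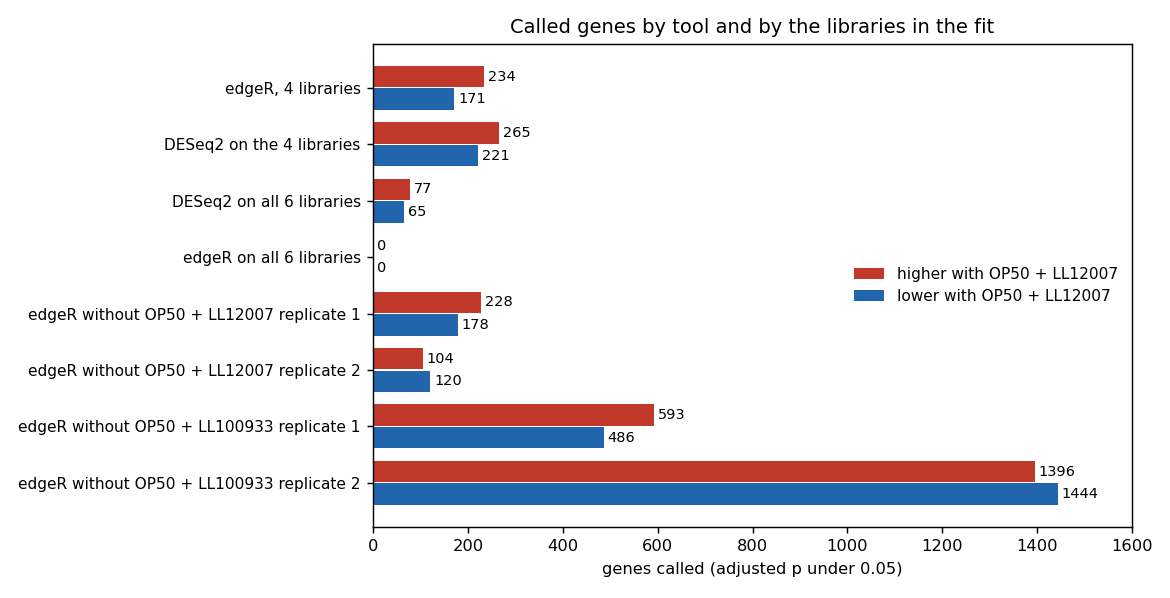
Bars give the number of genes called higher (red) and lower (blue) with OP50 + LL12007 by tool and by the libraries in the fit. The counts run between 0 in edgeR's fit of all 6 libraries and 1444 without replicate 2 of OP50 + LL100933.

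The OP50 libraries lay apart from each other in most of the genes that separated the strains. Among the 234 genes higher with OP50 + LL12007, OP50 replicate 1 was above OP50 replicate 2 in 221, against 7317 of all 14528 genes. Among the 171 lower genes it was below replicate 2 in 130. The median log2 ratio of the OP50 replicates, 1 over 2, was 0.58 in the higher genes, -0.40 in the lower genes and 0.00 in all genes. In most of these genes the OP50 replicates thus differed in the same direction as the strains, with replicate 1 in the place of OP50 + LL12007. For 150 of the higher and 135 of the lower genes, the OP50 libraries differed by less than the strains did, against 6048 of all 14528 genes. Called genes were selected for a clear strain difference, which by itself raises this number. The OP50 mean lay below both diets in 110 of the higher genes, between them in 119 and above both in 5. For the lower genes these counts were 29, 123 and 19. The part of this spread in the strain difference was not tested.

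**Figure D3:**
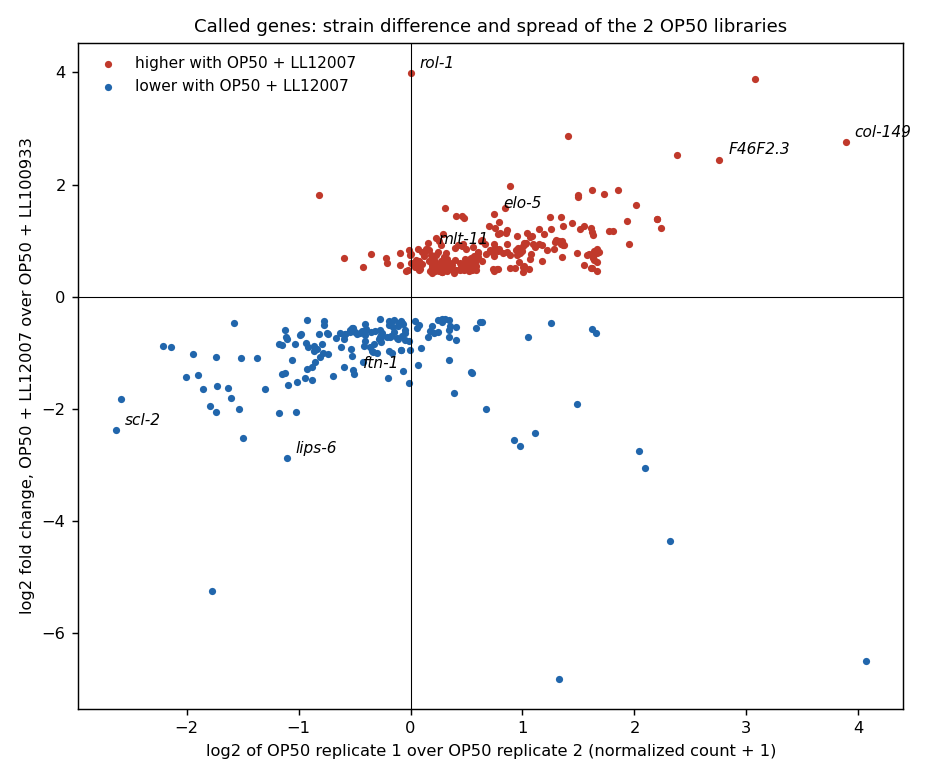
Each point is a gene called between the strains, with the log2 ratio of OP50 replicate 1 over OP50 replicate 2 on the horizontal axis and the log2 fold change of OP50 + LL12007 over OP50 + LL100933 on the vertical axis. Of the red, higher genes 221 of 234 lie to the right of 0, and of the blue, lower genes 130 of 171 lie to the left.

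Part of the genes of the apical extracellular matrix and of molting rose with OP50 + LL12007. Of 57 tested genes of this list, 10 rose (17.5%, beside 1.61% called higher among all genes) and none fell. Of the 57, 35 had a log2 fold change above 0 and 22 below. Their median log2 fold change was 0.06, beside -0.01 for all genes. *mlt-11*, which encodes a Kunitz-type protease inhibitor needed for molting, had 8104 and 8969 normalized counts with OP50 + LL12007, against 4730.3 and 4908 with OP50 + LL100933. Its 2 OP50 libraries, at 4743 and 4220.3, were close to those of OP50 + LL100933. The log2 fold change was 0.83 (standard error, SE, 0.10, edgeR adjusted p = 0.00378). The fibrillin homolog *fbn-1* had 1929 and 2104 normalized counts with OP50 + LL12007, against 1128 and 1153 with OP50 + LL100933, and 1454 and 1464 with OP50. Both OP50 libraries of *fbn-1* fell between the diets, and the log2 fold change was 0.83 (SE 0.10, edgeR adjusted p = 0.00430). The lipocalin genes *lpr-3*, *lpr-5* and *lpr-4*, whose products shape the matrix lining of narrow tubes and the skin, lie side by side on chromosome X between 11057401 and 11066811 (WBcel235). All 3 rose, by 0.72, 0.57 and 0.63 on the log2 scale. *lpr-3* had 3893 and 4472 normalized counts with OP50 + LL12007, against 2512 and 2580.4 with OP50 + LL100933.

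The other called members of the list were the zona pellucida domain genes *noah-1* (log2 fold change 0.64), *noah-2* (0.60) and *let-653* (0.78), the leucine-rich repeat gene *sym-1* (0.63) and the mucin-like *dpy-6* (1.19). In *noah-1*, counts of 5843 and 6435 with OP50 + LL12007 stood above 4045 and 3868 with OP50 + LL100933, and above 4521 and 4302 with OP50. *dpy-6* was less steady. It had 2687 and 2921 normalized counts with OP50 + LL12007 and 872 and 1601 with OP50 + LL100933, so the replicates of OP50 + LL100933 lay well apart. For all 10 called members the OP50 libraries were closer to each other than the strains were, beside 150 of all 234 higher genes. DESeq2 called 9 of the 57 in the fit of all 6 libraries. Without replicate 2 of OP50 + LL12007, 8 were called by edgeR, and *noah-1* (adjusted p = 0.0756) and *lpr-5* (adjusted p = 0.132) missed the threshold.

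Of the hedgehog-related, patched-related and astacin families few members were called, and all of those rose. Other cuticle-linked lists went the other way. Of 64 *abu* and *pqn* genes 2 fell (3.12%) and none rose. Of 19 chitin genes 1 fell (5.26%) and none rose, beside 1.18% lower among all genes. *wrt-10*, a member of the worm's hedgehog-related family, had 2171 and 2437 normalized counts with OP50 + LL12007, against 1362 and 1333 with OP50 + LL100933, a log2 fold change of 0.78 (SE 0.10, edgeR adjusted p = 0.00656). It was the only called gene of 44 hedgehog-related genes (2.27%, beside 1.61% called higher among all genes), and their median was 0.02. Of 25 patched-related genes, *ptr-4* (0.58) and *ptr-10* (0.87) rose (8.0%), with a list median of -0.07. Of 30 astacin metalloproteases only *nas-37* (0.66), which helps to shed the old cuticle, rose (3.33%), with a list median of -0.05. *ptr-4*, *ptr-10* and *nas-37* missed edgeR's threshold without replicate 2 of OP50 + LL12007 (adjusted p between 0.238 and 0.378), and *ptr-10* also without replicate 1 (adjusted p = 0.0767). A pair of genes that anchor the epidermis also rose, *mua-6*, an intermediate filament, by 0.92 and *mua-3*, a transmembrane protein of the attachment structures, by 0.50 on the log2 scale. In *mua-6* the OP50 libraries were at 3375 and 1499, apart by more than the diets, which had 4535 and 4687 with OP50 + LL12007 against 2286 and 2625 with OP50 + LL100933. *mua-3* missed the threshold without either OP50 + LL12007 library (adjusted p = 0.0635 and 0.281, edgeR). Of the 6 markers of molting larvae examined, 5 were tested and 4 rose: *mlt-11*, *noah-1*, *fbn-1* and *nas-37*. All 4 are genes already described above, so the markers add no separate called gene. The summed normalized counts of the 6 markers were 17898 and 19622 with OP50 + LL12007. They were 11649 and 12124 with OP50 + LL100933, and 12466 and 11571 with OP50. *mlt-11* alone held 8104 and 8969 of the OP50 + LL12007 sums. The part of larvae in these rises was not tested.

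**Figure D4:**
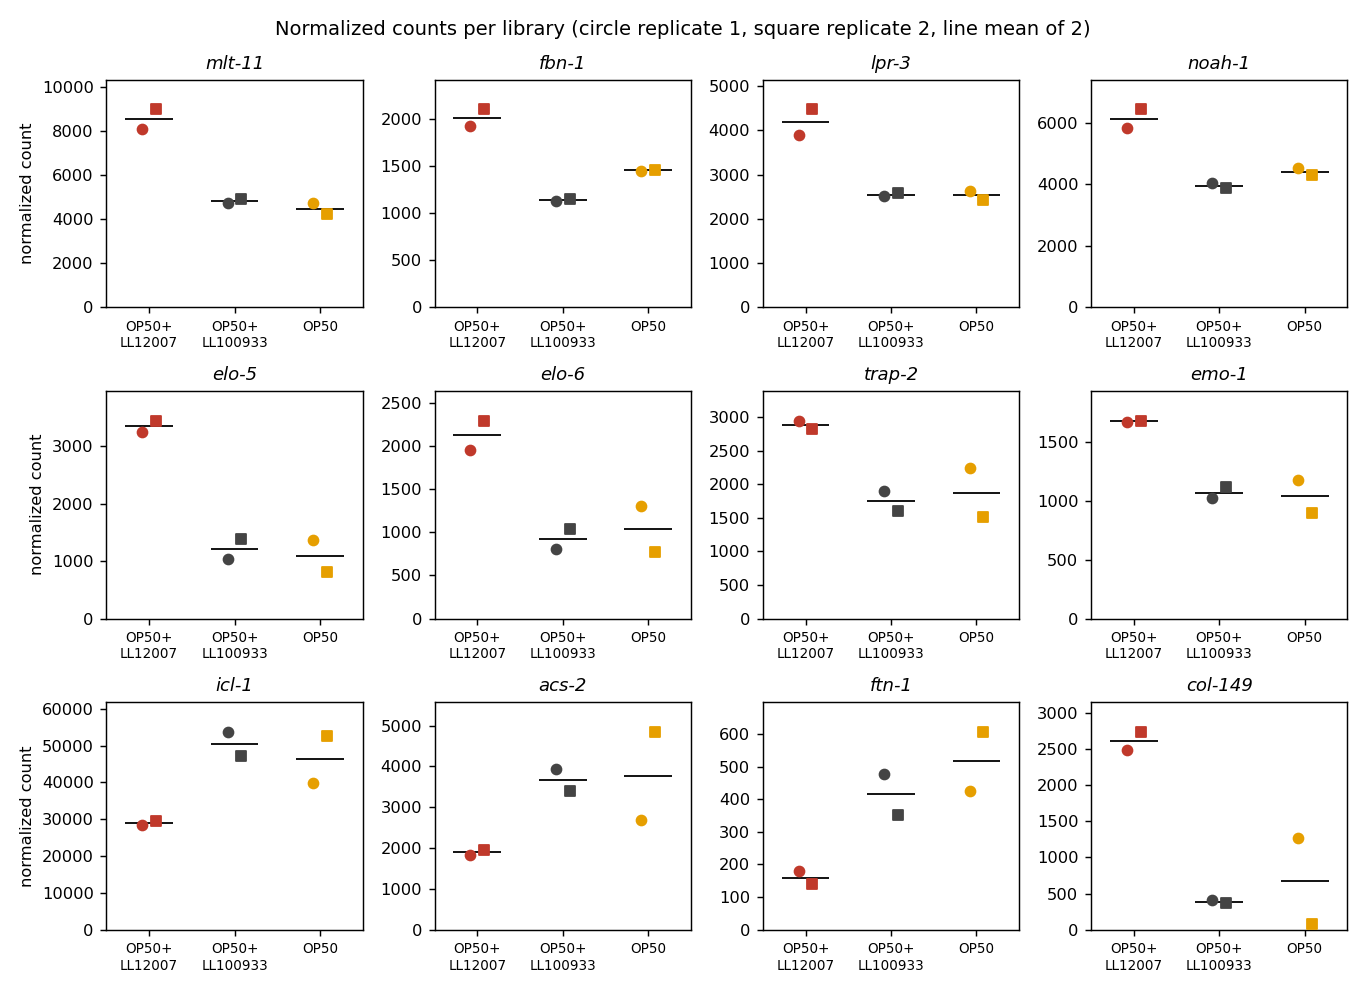
Normalized counts of 12 genes in each library, OP50 + LL12007 (red), OP50 + LL100933 (dark grey) and OP50 (orange), with circles for replicate 1, squares for replicate 2 and a line at the mean of 2. In *mlt-11*, *fbn-1*, *lpr-3* and *noah-1* the OP50 circles and squares lie close together, and in *col-149* they lie at 1264 and 84.5.

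Cuticle collagens changed in both directions. Of 141 tested, 11 rose (7.80%) and 8 fell (5.67%), beside 1.61% and 1.18% among all genes. The median log2 fold change was -0.04. *col-149* (chromosome V, 10291697 to 10292869) had the lowest adjusted p of all genes. It had 2489 and 2739 normalized counts with OP50 + LL12007, against 406 and 375 with OP50 + LL100933. Its log2 fold change was 2.75 (SE 0.11, edgeR adjusted p = 5.91e-06). In OP50 the 2 libraries had 1264 and 84.5, one inside the gap between the diets and one below it, and DESeq2 with all 6 libraries gave an adjusted p of 0.472. The furrow collagens, which form the circular grooves of the cuticle, are a group of 6 that was put together after the values had been seen. Of these, *dpy-9* (0.79), *dpy-8* (0.56) and *dpy-2* (0.57) rose and none fell. *dpy-9* had 1093 and 1091 normalized counts with OP50 + LL12007, against 649 and 620.4 with OP50 + LL100933, while the OP50 libraries had 706 and 219. Its replicates were nearly equal within each *Lactococcus* diet. *dpy-2* (adjusted p = 0.0807, edgeR) and *dpy-8* (adjusted p = 0.142, edgeR) missed the threshold without replicate 2 of OP50 + LL12007, and *dpy-2* also without replicate 1 (adjusted p = 0.0516). *lon-3*, a collagen that sets body length, rose by 0.85 on the log2 scale. Its OP50 libraries had 604 and 189, and DESeq2 with all 6 libraries gave an adjusted p of 0.838.

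The collagens that fell included *col-182* (log2 fold change -0.88), *col-39* (-0.71), *col-165* (-0.59), *col-92* (-0.57), *col-111* (-0.56) and *col-12* (-0.47). *col-165*, the most abundant of them, had 9339 and 8022 normalized counts with OP50 + LL12007, against 14009 and 12322 with OP50 + LL100933, and 4227 and 9198 with OP50. Among these 6 genes only *col-182* was called whichever of the 4 libraries was left out, and the adjusted p of the others reached 0.120 to 0.356 (edgeR) without one or the other OP50 + LL12007 library. Over all 141 cuticle collagens, edgeR called 4 higher and 5 lower without replicate 2 of OP50 + LL12007 and 20 and 38 without replicate 2 of OP50 + LL100933. For only 5 of the 19 called collagens were the OP50 libraries closer to each other than the diets were.

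Part of the genes for making fatty acids rose with OP50 + LL12007. Of 19 tested genes of fatty acid synthesis, 6 rose (31.6%, beside 1.61% among all genes) and none fell. The log2 fold change was above 0 in 12 and below 0 in 7, with a median of 0.19. The largest change was in *elo-5* and *elo-6*, the elongases that build branched-chain fatty acids, which lie 9492 bases apart on chromosome IV (*elo-5* at 5374598 to 5377137 and *elo-6* at 5386629 to 5388559). *elo-5* had 3241 and 3442 normalized counts with OP50 + LL12007, against 1028 and 1389.6 with OP50 + LL100933, and 1367 and 814 with OP50. Both libraries of LL12007 stood more than 2-fold above each of the other 4. The log2 fold change was 1.48 (SE 0.14, edgeR adjusted p = 0.00146), between 1.29 and 1.71 with any 1 library left out. *elo-6* had 1951 and 2297 normalized counts with OP50 + LL12007, against 809 and 1034 with OP50 + LL100933, and 1305 and 773 with OP50. Its log2 fold change was 1.22 (SE 0.14, edgeR adjusted p = 0.00378). *acs-1*, an acyl-CoA synthetase that acts on branched-chain fatty acids, rose by 0.77 on the log2 scale, with 2113 and 1888 normalized counts with OP50 + LL12007 against 995 and 1375 with OP50 + LL100933. In *acs-1* OP50 replicate 1, at 1895, was as high as OP50 + LL12007.

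Among the straight-chain enzymes, the palmitate elongase *elo-2* rose by 0.87 (SE 0.10, edgeR adjusted p = 0.00424), with 1855 and 1735 normalized counts with OP50 + LL12007 against 929 and 1044 with OP50 + LL100933. The stearoyl-CoA desaturase *fat-7* (0.79), the elongase homolog *elo-9* (1.14) and the fatty acid synthase *fasn-1* (0.45) rose as well. The other desaturases of this kind were not called: *fat-6* had a log2 fold change of -0.29 (adjusted p = 0.174, edgeR) and *fat-5* one of 0.03 (adjusted p = 0.931, edgeR). With replicate 2 of OP50 + LL12007 left out the calls of *fat-7* (adjusted p = 0.129), *elo-9* (0.210) and *fasn-1* (0.451) were lost from edgeR's test, and 3 of the 19 genes were still called. *fasn-1* was not called without replicate 1 either (adjusted p = 0.115). A further 4 genes that rose serve the synthesis of phosphatidylcholine, the main membrane lipid. They belong to a group of 12 put together after the values had been seen (33.3% called higher, beside 1.61% among all genes). They were *pmt-2* (0.49), *sams-1* (0.50), *pcyt-1* (0.57) and *cept-1* (0.78), each of which missed the threshold without either OP50 + LL12007 library (adjusted p between 0.0516 and 0.243, edgeR).

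In fat breakdown the picture was mixed. Of 57 tested genes, 5 rose (8.77%) and 4 fell (7.02%), beside 1.61% and 1.18% among all genes. The median log2 fold change was 0.02. The rising genes included the lipid-binding protein *lbp-6* (0.62), the peroxisomal acyl-CoA oxidase *acox-1.5* (0.91) and *ech-7*, an enoyl-CoA hydratase (0.68). The falling genes were *lipl-2* (-1.38), *cpt-3* (-2.06), *cpt-1* (-0.47) and the fatty acid and retinol binding gene *far-7* (-0.84). Without replicate 2 of OP50 + LL12007, 3 genes of the list were called in each direction. *lipl-2*, a lysosomal lipase, had 412 and 496 normalized counts with OP50 + LL12007, against 988 and 1392 with OP50 + LL100933, and 677 and 1504 with OP50. The diets did not overlap, and the log2 fold change carried a standard error of 0.17 (adjusted p = 0.00483, edgeR).

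Several genes known to be induced when worms fast were lower with OP50 + LL12007. A group of 33 tested genes of fasting and fat stores was put together after the values had been seen. Of these, 9 fell (27.3%, beside 1.18% among all genes) and none rose, with a median of -0.15. The most abundant was *icl-1*, the bifunctional enzyme of the glyoxylate cycle, with 28350.3 and 29658 normalized counts with OP50 + LL12007 against 53768 and 47175 with OP50 + LL100933, and 39728 and 52724 with OP50. The LL12007 libraries were the lowest of the 6. Its log2 fold change was -0.79 (SE 0.11, edgeR adjusted p = 0.00753), between -0.88 and -0.68 with any 1 library left out. *acs-2*, an acyl-CoA synthetase that feeds mitochondrial oxidation, had 1833 and 1966 normalized counts with OP50 + LL12007, against 3943 and 3394 with OP50 + LL100933, and 2689 and 4852 with OP50. It fell by 0.94 on the log2 scale (SE 0.11, edgeR adjusted p = 0.00378). The carnitine palmitoyltransferases *cpt-1* and *cpt-3*, the lipases *fil-1* (-1.44) and *lips-6* (-2.89), the trehalose phosphate synthase *tps-2* (-0.42) and the cytochrome P450 gene *cyp-37B1* (-1.82) made up the rest with *lipl-2*. *lips-6* varied widely, with 108 and 45.6 normalized counts with OP50 + LL12007 and 306 and 844 with OP50 + LL100933. Without either OP50 + LL12007 library, *cpt-1*, *tps-2* and *lips-6* missed edgeR's threshold (adjusted p between 0.205 and 0.946). With all 6 libraries, DESeq2 called 3 of these 33 genes.

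The mitochondrial transhydrogenase *nnt-1*, which makes NADPH, also fell. It had 636 and 576 normalized counts with OP50 + LL12007, against 1277 and 1459 with OP50 + LL100933, and 775 and 1398 with OP50, a log2 fold change of -1.17 (SE 0.11, edgeR adjusted p = 0.00235). In the propionate and vitamin B12-linked list, 3 of 16 genes rose (18.8%, beside 1.61% among all genes). They were *sams-1*, *acdh-1* (0.52), the first enzyme of the propionate shunt, and *ech-6* (0.49), its hydratase. *acdh-1* had 22518 and 24891 normalized counts with OP50 + LL12007, against 16352 and 16908 with OP50 + LL100933, but 23301 and 11619 in the OP50 libraries. The OP50 replicates thus spanned both diets. Neither *acdh-1* nor *ech-6* was called without either OP50 + LL12007 library (adjusted p between 0.0607 and 0.427, edgeR).

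Several genes for moving proteins into the endoplasmic reticulum and folding them there rose with OP50 + LL12007. This group of 31 was put together after the values had been seen. Of its genes, 10 were higher (32.3%, beside 1.61% among all genes) and none lower, with a median log2 fold change of 0.25. All 4 subunits of the translocon-associated complex rose, *trap-2* by 0.73, *trap-1* by 0.66, *trap-4* by 0.60 and *trap-3* by 0.53. *trap-2* had 2947 and 2826 normalized counts with OP50 + LL12007, against 1898 and 1600.4 with OP50 + LL100933, and 2240.1 and 1512 with OP50. The adjusted p was 0.00953 (standard error 0.11, edgeR). The channel subunits *sec-61* (0.49) and *emo-1* (0.66) rose, and so did the disulfide isomerases *pdi-6* (0.59) and *pdi-2* (0.55). *emo-1* had 1669 and 1681 normalized counts with OP50 + LL12007, against 1021 and 1118 with OP50 + LL100933. The 2 BiP chaperones, *hsp-3* and *hsp-4*, rose by 0.53 and 0.51. *hsp-3* was among the most abundant genes of the comparison, with 35185 and 35433 normalized counts with OP50 + LL12007, against 26208 and 23125 with OP50 + LL100933, and 27421 and 23055 with OP50. In 9 of the 10 called genes the OP50 libraries differed by less than the strains, beside 150 of all 234 higher genes. DESeq2 called 5 of the 31 with all 6 libraries. When replicate 2 of OP50 + LL12007 was left out edgeR called 4, *trap-1*, *trap-2*, *emo-1* and *pdi-6*, and the adjusted p of the other 6 lay between 0.0815 and 0.248. Without replicate 1 of OP50 + LL12007 it called 5.

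Other chaperones that rose were mitochondrial *hsp-60* (0.56) and the small heat shock gene *hsp-17* (1.07). They and the BiP genes were the 4 called of 61 tested heat shock and chaperone genes (6.56%, beside 1.61% among all genes). The median of this list was 0.07. In edgeR's fit without replicate 2 of OP50 + LL12007, 1 gene of the list was called, *hsp-17*. *hsp-60* missed the threshold there (adjusted p = 0.119, edgeR). The elongation factor *eef-1A.2*, which delivers aminoacyl-tRNA to the ribosome, had 26856 and 26291 normalized counts with OP50 + LL12007, against 19047 and 17554 with OP50 + LL100933. It rose by 0.55. Without either OP50 + LL12007 library it was not called, though its log2 fold change stayed at 0.55 in both fits. The share of ribosomal protein genes called was near the 1.61% called higher among all genes. Of 78 cytosolic ones only *rpl-41.2* was called (0.57, 1.28%), and of 67 mitochondrial ones only *mrps-9* (0.53, 1.49%). Without replicate 2 of OP50 + LL12007 neither was (adjusted p = 0.166 and 0.152, edgeR), nor was *mrps-9* without replicate 1 (adjusted p = 0.193). In the 4-library fit, 67 and 60 of these genes had a log2 fold change above 0, with medians of 0.13 and 0.18. The lean of the cytosolic list varied with the OP50 + LL100933 libraries. Its median was 0.25 with 13 higher calls without replicate 1, and 0.04 with 4 higher and 8 lower calls without replicate 2. Its summed normalized counts overlapped between the diets, with 1920160 and 1765380 for OP50 + LL12007 against 1877300 and 1608580 for OP50 + LL100933. The mitochondrial list had medians between 0.13 and 0.23 with any 1 library left out, and its sums did not overlap, at 44599 and 43321 with OP50 + LL12007 against 38947 and 39031 with OP50 + LL100933. Without replicate 1 and without replicate 2 of OP50 + LL100933 it had 5 and 17 higher calls.

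**Figure D5:**
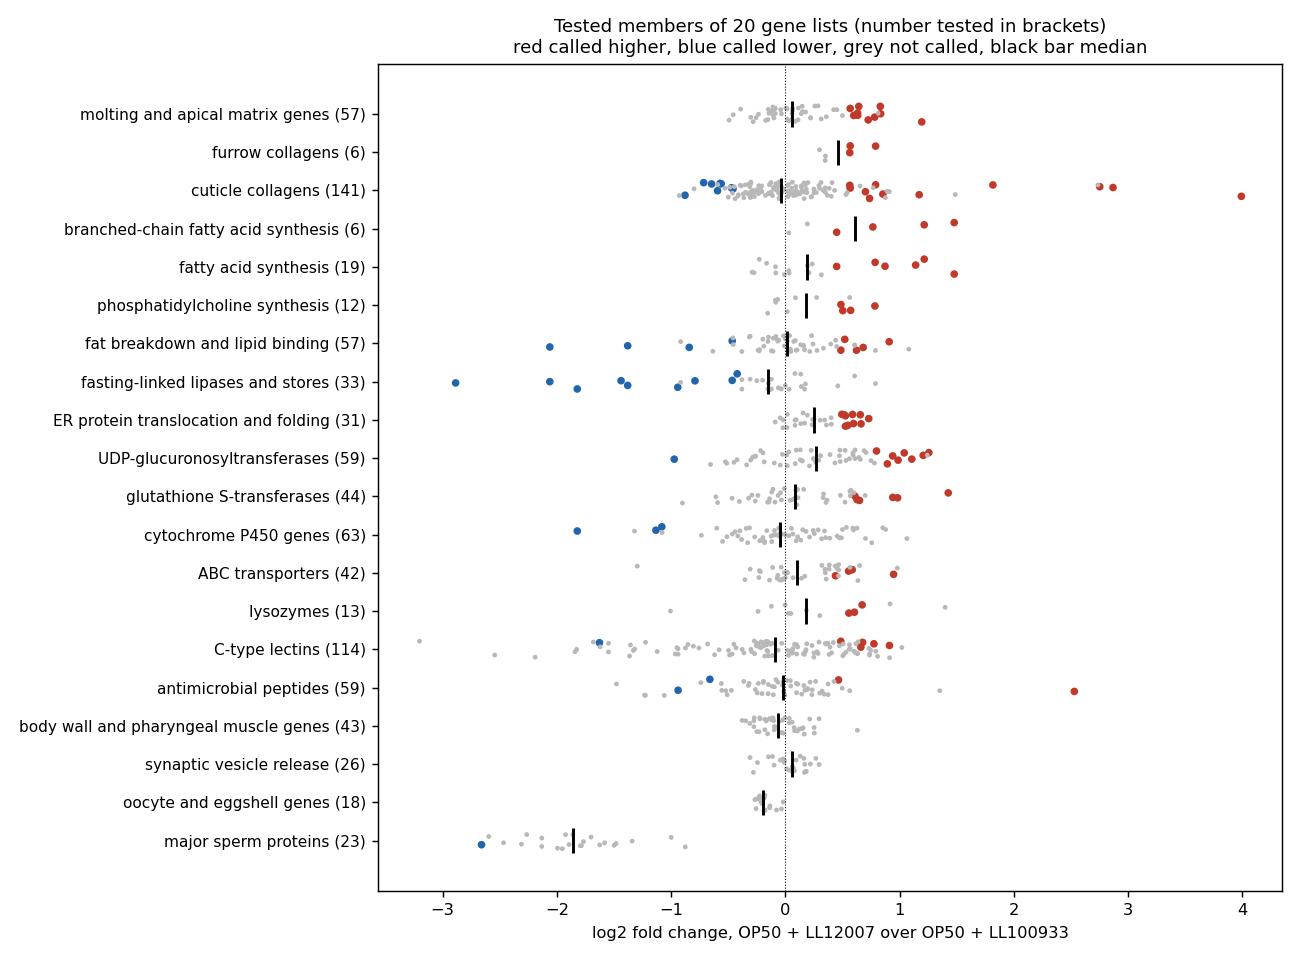
Each point is a tested member of 1 of 20 gene lists, placed by its log2 fold change, OP50 + LL12007 over OP50 + LL100933. Red and blue points were called higher and lower (edgeR, adjusted p under 0.05), and grey points were not called. The black bar is the list's median, which runs between -1.86 for the major sperm proteins and 0.61 for branched-chain fatty acid synthesis. The lists of branched-chain fatty acid synthesis, furrow collagens and phosphatidylcholine synthesis were put together after the values had been seen. So were those of fasting-linked lipases and stores and of endoplasmic reticulum (ER) protein translocation and folding.

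Among enzymes that conjugate foreign compounds, more genes rose than fell with OP50 + LL12007. Of 59 tested UDP-glucuronosyltransferases, 8 rose (13.6%) and 1 fell (1.69%), beside 1.61% and 1.18% among all genes. Their median log2 fold change was 0.27. *ugt-62* had 536 and 719.9 normalized counts with OP50 + LL12007, against 255 and 275 with OP50 + LL100933, and 311 and 191 with OP50. The log2 fold change was 1.26 (SE 0.16, edgeR adjusted p = 0.00663). *ugt-57* rose by 1.04 and *ugt-44* by 0.80. Of 44 glutathione S-transferases, 6 rose (13.6%) and none fell, with a median of 0.09. *gst-4*, a much used reporter of SKN-1 activity, had 467 and 520.2 normalized counts with OP50 + LL12007, against 232 and 272 with OP50 + LL100933, while OP50 had 535 and 217. OP50 replicate 1 lay above all libraries of both diets and replicate 2 below all of them. *gst-24* (0.94) and *gst-12* (1.43), neighbours on chromosome II, rose too. *gst-12* was not called without replicate 2 of OP50 + LL12007 (log2 fold change 1.38). In only 1 of the 6 called glutathione S-transferases were the OP50 libraries closer to each other than the strains. DESeq2 with all 6 libraries called none of these genes and 2 of the UDP-glucuronosyltransferases. With OP50 + LL12007 replicate 2 left out, edgeR called 3 glutathione S-transferases and 5 UDP-glucuronosyltransferases as higher.

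Of 42 ABC transporters, 4 rose (9.52%, beside 1.61% among all genes) and none fell. Among them were *pgp-9* (0.95, adjusted p = 0.00710, edgeR), *mrp-2* (0.58) and *haf-4* (0.44). *pgp-9*, a P-glycoprotein, had 739 and 827 normalized counts with OP50 + LL12007, against 386 and 432 with OP50 + LL100933. Without replicate 2 of OP50 + LL12007 it was the one ABC transporter still called. *mrp-2* and *haf-4* missed the threshold without either OP50 + LL12007 library (adjusted p between 0.0757 and 0.496, edgeR). Of 63 tested cytochrome P450 genes, none was called higher and 3 lower, *cyp-37B1*, *cyp-32B1* (-1.08) and *cyp-34A9* (-1.13). Among all tested genes 1.61% were higher and 1.18% lower, so no higher call among 63 is little different from the background. The list's median was -0.05, between -0.13 and 0.06 with any 1 library left out. *cyp-37B1* had 109 and 167 normalized counts with OP50 + LL12007, against 488 and 490.0 with OP50 + LL100933, and 132 and 800.2 with OP50. *cyp-34A9* was not called without replicate 1 of OP50 + LL12007 (adjusted p = 0.0653, edgeR).

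Genes of metal storage changed as well. The ferritin gene *ftn-1* had 179 and 140.3 normalized counts with OP50 + LL12007, against 478 and 352 with OP50 + LL100933, and 426 and 607 with OP50. The LL12007 libraries were the lowest, and the log2 fold change was -1.37 (SE 0.19, edgeR adjusted p = 0.00828). The metallothionein gene *mtl-1* had 161 and 156 normalized counts with OP50 + LL12007, against 442 and 397 with OP50 + LL100933, and 112 and 419 with OP50. It fell by 1.39 on the log2 scale (SE 0.15, edgeR adjusted p = 0.00331), whereas the second metallothionein gene, *mtl-2*, had a log2 fold change of -0.08 (adjusted p = 0.879, edgeR). *cdr-4*, a cadmium-responsive gene, rose by 0.80, though it was not called without replicate 2 of OP50 + LL12007 (log2 fold change 0.73). These were the called members among 30 genes of oxidative stress and metals (3.33% higher and 6.67% lower, beside 1.61% and 1.18% among all genes). None of 6 heme genes was called, which for so few genes is little different from the background, and 5 of them were above 0. *hrg-7*, a protease homolog that signals heme status, had 3374 and 2809 normalized counts with OP50 + LL12007. With OP50 + LL100933 it had 2459 and 2399 (adjusted p = 0.119, edgeR).

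The share of antibacterial effectors called differed between families, beside 1.61% higher and 1.18% lower among all genes. Of 13 lysozyme genes, *ilys-5* (0.67), *lys-4* (0.60) and *lys-2* (0.56) rose (23.1%) and none fell. *ilys-5*, of the invertebrate type, had 9811 and 9974 normalized counts with OP50 + LL12007, against 5689 and 6805 with OP50 + LL100933. OP50 stood at 12092 and 9847, so LL100933 was the low diet. *lys-4* had 2623 and 2637 normalized counts with OP50 + LL12007, against 1686 and 1794 with OP50 + LL100933, and 1661 and 1926 with OP50, so here LL12007 was the high one. *lys-4* (adjusted p = 0.0510, edgeR) and *lys-2* (0.283) were not called without replicate 2 of OP50 + LL12007, and *lys-2* not without replicate 1 (0.0767). Of 114 C-type lectins 5 rose (4.39%) and 1 fell (0.877%), with *clec-180* (0.68), *clec-52* (0.66) and *clec-72* (0.49) the ones with the lowest p. In the fit without OP50 + LL12007 replicate 2, 1 lectin was called higher and 2 lower. Each of the 3 named lost its call without an OP50 + LL12007 library (adjusted p between 0.0597 and 0.420, edgeR).

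Of 59 antimicrobial peptide genes, 2 rose and 2 fell (3.39% each). The saposin-like *spp-23* had 826 and 786 normalized counts with OP50 + LL12007, against 115 and 167 with OP50 + LL100933, and 487 and 92.6 with OP50. It rose by 2.53 on the log2 scale (SE 0.17, edgeR adjusted p = 0.000338), *spp-14* rose by 0.46, *spp-8* fell by 0.66 and the thaumatin gene *thn-2* fell by 0.94. *thn-2* had 420.5 and 439 normalized counts with OP50 + LL12007, against 909 and 746 with OP50 + LL100933, and 545 and 790.1 with OP50. *spp-14* and *spp-8* missed edgeR's threshold without replicate 2 of OP50 + LL12007 (adjusted p = 0.416 and 0.0951), and *spp-14* without replicate 1 (0.0858). None of 41 infection response genes was called, little different from the 1.61% higher and 1.18% lower among all genes. The most abundant of them, *irg-7*, had 9166 and 9833 normalized counts with OP50 + LL12007 against 7665 and 8238 with OP50 + LL100933 (adjusted p = 0.193, edgeR).

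Intestinal genes changed in both directions. *act-5*, the actin of the microvilli, had 15139.8 and 17554 normalized counts with OP50 + LL12007, against 9394 and 11283 with OP50 + LL100933. Its OP50 libraries had 13781 and 6585, and DESeq2 with all 6 libraries gave an adjusted p of 0.768. The intermediate filament *ifb-2*, which underlies the same brush border, had 10876 and 10718 normalized counts with OP50 + LL12007, against 14464 and 14221 with OP50 + LL100933. The actin rose by 0.67 on the log2 scale and the filament fell by 0.40. The acid phosphatases *pho-1* (0.52) and *pho-13* (1.38) rose, 2 of 11 tested (18.2%, beside 1.61% higher among all genes). Of 21 aspartic and cysteine proteases, *cpr-5* (0.51) and *asp-12* (0.76) rose (9.52%) and *asp-13* fell (4.76%, beside 1.18%). *asp-13* had 1031 and 997 normalized counts with OP50 + LL12007, against 1797 and 1732 with OP50 + LL100933, and 1709.6 and 1729 with OP50, a log2 fold change of -0.79 (SE 0.10, edgeR adjusted p = 0.00476). All 4 libraries without LL12007 lay within a narrow range. The calls of *act-5*, *ifb-2*, *pho-1*, *cpr-5* and *asp-12* were lost without replicate 2 of OP50 + LL12007 (adjusted p between 0.0743 and 0.591, edgeR), and those of *ifb-2* (0.408), *pho-1* (0.266) and *cpr-5* (0.0610) also without replicate 1.

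Abundant genes that fell were the galectin *lec-2*, the alcohol dehydrogenase *sodh-1* and *F26F12.3*. *lec-2* had 6968 and 7071 normalized counts with OP50 + LL12007, against 12090.4 and 13169 with OP50 + LL100933, a log2 fold change of -0.84 (SE 0.09, edgeR adjusted p = 0.00378), and its OP50 libraries had 6305 and 14197. *sodh-1* fell by 0.68 and *F26F12.3* by 0.58. The OP50 libraries of *sodh-1* had 7011 and 13874, and DESeq2 with all 6 libraries gave it an adjusted p of 0.753. The autophagy gene *lgg-1* fell by 0.43. Without replicate 1 of OP50 + LL12007 the adjusted p was 0.0726 for *sodh-1*, 0.0738 for *F26F12.3* and 0.344 for *lgg-1* (edgeR), and without replicate 2 it was 0.156 for *F26F12.3* and 0.420 for *lgg-1*. Abundant genes that rose included *F46F2.3* and *ZK6.11*, with log2 fold changes of 2.44 and 1.25. *F46F2.3* had 13218 and 15286 normalized counts with OP50 + LL12007, against 1981 and 3305 with OP50 + LL100933, and 7459 and 1103 with OP50 (SE 0.20, edgeR adjusted p = 0.000715).

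The largest fold changes were in genes with few counts. The collagen *rol-1* had 17.8 and 33.1 normalized counts with OP50 + LL12007, against 1.82 and 1.09 with OP50 + LL100933, and no count with OP50. This was 45 counts with OP50 + LL12007 against 3 with OP50 + LL100933, a ratio of 17.04 after scaling by library size (exact 95% interval 5.47 to 85.7, counting error only). *C17B7.12*, with 29 counts against 2, had a ratio of 16.5 (exact interval 4.17 to 142). *col-49* followed with a log2 fold change of 2.87. These 3 genes were not called without replicate 2 of OP50 + LL12007 (adjusted p between 0.0967 and 0.150, edgeR), and *C17B7.12* not without replicate 1 of OP50 + LL100933 (adjusted p = 0.0559). Behind *col-149*, *spp-23* and *F46F2.3* came *mltn-5* (1.98), the nuclear hormone receptor *nhr-265* (1.91), *F31F4.11* (1.90), *B0205.13* (1.83), *col-175* (1.82) and *Y40B10B.1* (1.81). *B0205.13* had 169 and 208 normalized counts with OP50 + LL12007, against 51.8 and 54.3 with OP50 + LL100933, and 29.0 and 8.05 with OP50, and was called by edgeR in each of the 4 fits that left out a library. *F31F4.11*, *col-175* and *Y40B10B.1* were not called without replicate 2 of OP50 + LL12007 (adjusted p between 0.150 and 0.283), and *F31F4.11* not without its replicate 1 (adjusted p = 0.0661).

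Among the falls, *F59A6.4* and *F43C11.2* were at 0 in both OP50 + LL12007 libraries. Set against a floor of 3 counts per library, they were at least 4.30-fold and at least 3.50-fold lower with OP50 + LL12007. With OP50 + LL100933 they had 18.2 and 10.9, and 12.7 and 10.9 normalized counts. *F43C11.2* was called in none of the 4 fits that left out a library. The chitinase-like *chil-28* had 0 and 1.14 normalized counts with OP50 + LL12007, against 20.9 and 32.6 with OP50 + LL100933, and 5.79 and 22.1 with OP50 (adjusted p = 0.0130, edgeR). This was 1 count in all with OP50 + LL12007, against 53 with OP50 + LL100933. The ratio of these counts, scaled by library size, was 0.0214, with an exact 95% interval of 0.000533 to 0.125 that covers counting error only. For *M176.10*, with 1 count against 29, the ratio was 0.0392 (exact interval 0.000959 to 0.236). *Y69E1A.1* (-3.06), *C04G2.9* (-2.76), *F49H6.5* (-2.53), *gipc-2* (-2.44) and *scl-15* (-2.56), given with their log2 fold changes, had under 130 normalized counts in each library. *scl-2*, at a higher level, had 339 and 276 normalized counts with OP50 + LL12007, against 1991 and 1231 with OP50 + LL100933, and 593 and 3682 with OP50 (log2 fold change -2.38, SE 0.21, edgeR adjusted p = 0.00121). Its neighbour *scl-6*, 9666 bases away on chromosome IV and of the same family of secreted proteins, rose by 1.22. Without replicate 1 of OP50 + LL100933, *gipc-2* and *scl-15* were not called (adjusted p = 0.0857 and 0.0856, edgeR), and *F59A6.4* and *M176.10* did not pass the filter. Without replicate 2 of OP50 + LL12007, *F59A6.4*, *M176.10* and *Y69E1A.1* were not called (adjusted p between 0.0532 and 0.232), and *Y69E1A.1* not without its replicate 1 (adjusted p = 0.195).

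The lists of muscle and of synaptic genes held no called gene, which at the shares called among all genes (1.61% higher and 1.18% lower) is little different from the background for lists of this size. None of 43 muscle genes passed in either direction, with a median log2 fold change of -0.07 and a range of -0.38 to 0.63. The myosin *unc-54* had 60869.6 and 63681 normalized counts with OP50 + LL12007, against 66344 and 68664 with OP50 + LL100933, and 48714 and 41737 with OP50. Both diets were above OP50, and the difference between them was small (log2 fold change -0.11, SE 0.10, edgeR adjusted p = 0.645). None of 26 genes of synaptic vesicle release was called (median 0.06, and -0.04 without replicate 1 of OP50 + LL100933). In the fit without replicate 2 of OP50 + LL100933, which called 1396 higher and 1444 lower genes in all, 7 muscle genes were called higher and 3 lower, and 11 synaptic genes higher and 3 lower. Without its replicate 1, 1 muscle gene was called higher and 7 lower, and 1 synaptic gene lower. Of the genes with a PCR result in the paper, each measured against OP50 alone and not between strains, none was called here. The astacin protease gene *nas-7* had the lowest p of them, with 552 and 508 normalized counts with OP50 + LL12007, against 761 and 716 with OP50 + LL100933 (log2 fold change -0.47, SE 0.11, edgeR adjusted p = 0.0629). The degenerin channel *unc-105* had a log2 fold change of 0.63 (adjusted p = 0.112) and *cyp-33E2* one of 0.88 (adjusted p = 0.128). The others were the giant muscle protein *unc-89* (-0.00), the secretion regulator *rbf-1* (0.17) and the growth factor *let-756* (0.17). The guanylyl cyclase *daf-11* (-0.32), the troponin *tnt-4* (-0.28) and the channel *clhm-1* (0.21) have no PCR result in the paper's text. All of these had adjusted p values between 0.171 and 0.994 (edgeR). Of the PCR reference genes, *act-1* had a log2 fold change of 0.20, *cyc-1* one of 0.00 and *tba-1* one of 0.01. The regulators whose mutants were tested, *daf-16* (-0.15), *skn-1* (0.20) and *pmk-1* (-0.21), were not called (adjusted p between 0.343 and 0.564, edgeR). Neither was any of the 14 insulin and DAF-16 signalling genes or of the 11 genes of the PMK-1 and SKN-1 pathways. For lists of this size that is again little different from the background. In the insulin list 2 genes were called lower without replicate 1 of OP50 + LL100933, and in the PMK-1 and SKN-1 list 4 were called higher and 1 lower without its replicate 2.

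The germline lists were also without calls in the 4-library fit. None of 41 meiosis genes, 40 germ granule genes, 18 oocyte and eggshell genes or 48 cell division genes passed. With 1.61% higher and 1.18% lower among all genes, no call in lists of this size is little different from the background. Their medians were -0.13, -0.18, -0.19 and -0.09. These results varied with the libraries used. There were 9, 18, 10 and 15 lower calls, and 2 higher calls among the meiosis genes, without replicate 2 of OP50 + LL100933. With any 1 library left out the medians ran from -0.21 to -0.07 for meiosis, from -0.25 to -0.06 for germ granules, from -0.31 to -0.07 for oocytes and eggshell and from -0.17 to 0.04 for cell division. All 18 oocyte and eggshell genes had a log2 fold change below 0, and the eggshell gene *cpg-1* had 29289.9 and 24984 normalized counts with OP50 + LL12007 against 30989.8 and 30759 with OP50 + LL100933. The 6 yolk protein genes had log2 fold changes between -0.18 and 0.66. None was called by edgeR, and DESeq2 on the 4 libraries called 1 higher. Among them *vit-6* had 440139 and 378941 normalized counts with OP50 + LL12007, against 418749 and 406616 with OP50 + LL100933. With OP50 it had 465240.0 and 648574 (adjusted p between the strains 0.993, edgeR). The major sperm protein genes varied between libraries of one diet. All 23 tested major sperm proteins had a log2 fold change below 0, with a median of -1.86, but 1, *msp-33*, was called (-2.66, adjusted p = 0.0359, edgeR). The summed sperm markers were 281 and 350.3 with OP50 + LL12007, against 1500.4 and 539 with OP50 + LL100933, and 1321 and 429 with OP50. Without replicate 1 of OP50 + LL100933 the median was -0.92 and none was called, without its replicate 2 all 23 were called, and without either OP50 + LL12007 library 6 and 8 were. *msp-33* had an adjusted p of 0.0684 (edgeR) without replicate 1 of OP50 + LL100933. Of 52 other sperm genes, 44 had a log2 fold change below 0 and the median was -0.48, between -0.57 and -0.36 with any 1 library left out. Their summed normalized counts did not overlap between the diets, at 4064 and 4125 with OP50 + LL12007 against 5244 and 4835 with OP50 + LL100933, and were 5107 and 4323 with OP50. Of these, *nspc-16* was called (-0.94, adjusted p = 0.0374, edgeR), though not without replicate 2 of OP50 + LL12007 (adjusted p = 0.304). Replicate 1 of OP50 + LL100933 was also the highest in ribosomal RNA. The 5 tested ribosomal RNA genes had log2 fold changes between -2.79 and -1.35, with *rrn-2.1* called (159 and 102 normalized counts with OP50 + LL12007, against 767 and 277 with OP50 + LL100933), though not without either OP50 + LL12007 library (adjusted p of 0.536 or more, edgeR). Without replicate 1 of OP50 + LL100933 the median was -0.43.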

How the data were processed

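RNA of whole N2 worms was sequenced as 6 libraries, 2 per diet, after poly(A) selection (a Magnosphere kit in the paper, a NEBNext module in the labels) and a SMARTer stranded kit. The authors trimmed the reads with Trim Galore 0.6.5, Trimmomatic 0.39 and cutadapt 2.7, aligned them to ce11 (WBcel235) with STAR 2.7.2b and deposited whole-number counts per gene from featureCounts 1.6.4. These versions are from the submitters' processing notes, and the paper names others. How strand and multiply matching reads were handled is not given in the sources used here. Names of 11 genes that read as dates were restored by WormBase identifier.

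The 4 *Lactococcus* libraries were fitted with edgeR 4.0.16 (R 4.3.3): filterByExpr, TMM, robust quasi-likelihood test, Benjamini-Hochberg over all tested genes. Normalized counts are counts scaled by TMM over 6 libraries. Standard errors are the log2 fold change over the square root of F. The steps were tested on simulated data. Genes were named by rule: the 12 largest rises and falls, the 10 largest differences in level, and genes the study measured. Up to 3 called members (or the 2 most abundant) were also named for each of 46 lists. Further named genes, and 7 of 69 lists, were chosen after their values were seen. The members and lists were chosen with earlier results of these data known. Lists are described by counts and medians, without a set test. Alternatives were DESeq2 1.42.0, edgeR on 6 libraries, other factors, filters and dispersion, a replicate block, and each library left out, where a lone sample is assumed to vary like the other group.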

Additional observations from a re-analysis of the deposited data

How the results depend on the processing

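The number of called genes depended on which libraries entered the fit. Against 234 higher and 171 lower genes, edgeR called 0 and 0 with all 6 libraries, DESeq2 77 and 65 with all 6, and edgeR 614 and 580 when all genes with at least 1 count were tested. With the replicate number as a block (replicate block) the counts were 1274 and 1337. The 2 libraries that share a number had deviations correlated at 0.214 over genes, and with only 2 numbers this was not taken as pairing. Leaving out a library gave 104 to 1396 higher and 120 to 1444 lower genes. DESeq2 on the 4 libraries (265 and 221), RLE factors (223 and 167), upper-quartile factors (245 and 177), library totals (192 and 145), a minimum of 1 CPM in 2 libraries (223 and 168) and a fit that was not robust (239 and 171) stayed within 1.5 times. The medians of these 46 lists also varied. They moved by more than the spread between libraries in 25 lists without replicate 1 of OP50 + LL100933, in 19 without its replicate 2, in 12 without replicate 1 of OP50 + LL12007 and in 9 without its replicate 2, and in 0 to 6 under each of the other alternatives. In 10 lists the median changed sign in at least 1 of the fits that left out a library, the cuticle collagens among them (-0.05 to 0.09, against -0.04). The molting list had medians between 0.02 and 0.17. All 13 lists without a called gene held at least 1 call in at least 1 of these fits. No called gene named in the text changed sign under those of the 14 alternatives that tested it. Of 136 named genes that were called, 136 lost their call in edgeR's fit of all 6 libraries, 86 in that of DESeq2, 68 without replicate 2 of OP50 + LL12007 and 44 without its replicate 1. Depth limited the weakest genes, since a floor of 3 counts lay at 2.73 to 3.42 normalized counts in the *Lactococcus* libraries.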

Other observations

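The shares of called genes varied between chromosomes, beside 1.61% higher and 1.18% lower among all tested genes. On chromosome X, 52 of 2196 tested genes rose and 15 fell with OP50 + LL12007 (2.37% and 0.683%), and on chromosome I, 33 of 2308 rose and 14 fell. On chromosome II the lower genes were the more numerous, with 31 higher and 40 lower of 2536, and on chromosome V the numbers were 47 and 47 of 2912. Chromosome III had 31 higher and 21 lower of 2196, and chromosome IV 40 and 33 of 2366. Mitochondrial DNA had 0 and 1 of 14. The median log2 fold change was 0.03 on chromosome X and -0.03 on chromosome II. These differences between chromosomes were not tested.

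Along the chromosomes, 44 pairs of successive called genes lay within 15 kb of each other. In 20 pairs both genes rose, in 8 both fell, and in 16 they moved in opposite directions, such as *pho-13* (1.38) and *F46C5.1* (-1.58). Of the pairs that moved the same way, *clec-71* and *clec-72* (chromosome IV, 4892 bases apart) both rose, by 0.91 and 0.49 on the log2 scale, and *ugt-26* and *ugt-25* (chromosome I, 7643 bases apart) rose by 1.11 and 0.89. *F56D6.9* and *F56D6.8*, 775 bases apart on chromosome IV, fell by 1.45 and 1.52.

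The genes *C45B2.2* and *R193.2* were high with both *Lactococcus* diets and higher with LL12007. *C45B2.2* had 1555 and 1937 normalized counts with OP50 + LL12007, against 1087 and 1245 with OP50 + LL100933, and 373 and 267 with OP50. *R193.2* had 982 and 1203 normalized counts with OP50 + LL12007, against 565 and 763 with OP50 + LL100933, and 271 and 161 with OP50. Between the strains *C45B2.2* rose by 0.59 and *R193.2* by 0.73 on the log2 scale (edgeR, adjusted p = 0.0442 and 0.0431). Neither was called without replicate 2 of OP50 + LL12007, with log2 fold changes of 0.42 and 0.57.

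The MATH and BTB genes are a large family of ubiquitin ligase adaptors. Of 74 tested, 3 were lower (4.05%, beside 1.18% among all genes) and none higher, with 55 below 0 and a median of -0.21. *math-38* had 98.7 and 83.3 normalized counts with OP50 + LL12007, against 196 and 194 with OP50 + LL100933, and its log2 fold change was -1.09. *btb-16* (-0.98) and *bath-47* (-0.74) were the other called members, and all 3 missed edgeR's threshold without replicate 2 of OP50 + LL12007 (adjusted p between 0.0857 and 0.258). *btb-16* and *bath-47* missed it without replicate 1 too (adjusted p = 0.0561 and 0.212). On mitochondrial DNA 14 genes were tested, with 0 called higher and 1 lower. A list of 12 mitochondrially encoded genes does not hold the called one. Every gene of this list had a log2 fold change above 0, with a median of 0.29, between 0.18 and 0.39 with any 1 library left out. None was called in the 4-library fit, 2 were called higher without replicate 1 of OP50 + LL100933 and 9 without its replicate 2. The most abundant, *ctc-3*, had 33534 and 38066 normalized counts with OP50 + LL12007, against 26908 and 31759.9 with OP50 + LL100933 (adjusted p = 0.242, edgeR). Of 9 tested *dod* genes, named as downstream of DAF-16, 1 rose and 1 fell (11.1% each, beside 1.61% and 1.18% among all genes). Of the 9, 6 had a log2 fold change above 0 and the median was 0.35. *dod-19* was the one that rose, by 0.68 (adjusted p = 0.0431, edgeR), and was called in 3 of the 4 fits that left out a library. *dod-3*, the one that fell, had 67.7 and 54.8 normalized counts with OP50 + LL12007, against 152 and 188 with OP50 + LL100933, and 54.6 and 106 with OP50, a log2 fold change of -1.46 (SE 0.22, edgeR adjusted p = 0.0104).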
